A study of Mus musculus with 16 samples.

Results

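The genes described here encode 5 enzyme families that handle drugs, dietary chemicals, steroids and bile acids: the Cyp2 and Cyp3a cytochromes P450, the UDP-glucuronosyltransferases (Ugt1a and Ugt2), the glutathione S-transferases (Gst) and the sulfotransferases (Sult). Members were chosen by symbol and selected on the measured mean count, at a mean of at least 10 counts over all libraries, which kept 58 of the 115 family symbols among the 24940 genes measured. The 58 comprised 16 of 48 Cyp2, 5 of 7 Cyp3a, 8 of 8 Ugt1a, 4 of 10 Ugt2, 18 of 21 Gst and 7 of 21 Sult symbols. Their levels are therefore given as a description without a test. The members nearest the limit were Cyp2d12 at a mean of 10.8 counts and Cyp3a59 at 11.7, and the nearest genes left out were Sult5a1 at 9.88 and Ugt2a3 at 8.88.

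Terminal ileum was collected from C57BL/6 mice in 4 groups of 4 libraries each: male WT and female WT mice carried Bcl6fl/fl alleles, and male LKO and female LKO mice carried the same floxed alleles plus Albumin-Cre (Bcl6LKO). Bcl6 encodes a transcriptional repressor, and Albumin-Cre acts in hepatocytes, so the ileum itself is not the target of the deletion. RNA-seq of the ileum asked how its transcription differed when the liver lacked BCL6, in each sex. The WT mice, as far as the labels go, lacked Cre, so an effect of Cre itself cannot be told apart from that of Bcl6 deletion, and the ages of the mice were not given in the sources used here.

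Xenobiotic metabolism proceeds in steps. Cytochromes P450 first add or expose a reactive group, and transferases then attach glucuronic acid (Ugt), glutathione (Gst) or sulfate (Sult), which makes the product more soluble and ready for export. In the small intestine these enzymes are carried mainly by enterocytes, where they act on compounds before they reach the portal blood, and many of their genes answer to nuclear receptors such as the pregnane X receptor (PXR, encoded by Nr1i2), to the aryl hydrocarbon receptor (AHR) and to NRF2.

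Libraries held 15.7 M to 60.3 M gene counts (M, 1e6), with a median of 18.1 M, and the 58 members took 0.325% to 0.453% of them. Female LKO replicate 1 was the deepest library. Enterocyte markers were abundant in every library (Vil1, an enterocyte brush border protein, at 2337 to 3139 CPM, the count scaled to library size with TMM factors), and 5 of 10 hepatocyte markers stayed at or below 0.562 CPM (Serpina1a, Serpina1c, Fgb, Fga, Ahsg), with Alb, Ttr and Apoa2 at 0.330 to 4.01 CPM and with Cps1 and Tat, which are not confined to liver, higher. Summed CPM of 10 B cell follicle markers reached 83.9 to 448 in 4 libraries (male WT replicate 2, female WT replicate 3, female LKO replicates 2 and 3) against 20.9 to 34.8 in the other 12. Xist and Ddx3y matched the labelled sex in all 16 libraries, whereas Bcl6, at 9.24 to 26.1 CPM, checks no label in a tissue where it is not the target. In such bulk tissue, fewer cells of a type and less RNA per cell cannot be told apart.

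Of these genes, 6 sit together in one stretch of chromosome 5 (mm10, 86889770 to 87569006, 0.679 Mb): Ugt2b34, Ugt2b35, Ugt2b36 and Ugt2b5, then Sult1b1 and Sult1d1. Ugt2b34 is the 1 member that passed a genotype test in the main edgeR fits, over both sexes. DESeq2, an alternative, also called Sult1d1 and Ugt2b5 in females and Cyp3a25 over both sexes. The neighbors of Ugt2b34, and Cyp3a25, farther along the same chromosome, are described with it below. The other 6 family genes in that stretch had means of at most 8.88 counts. The 250 bases before the start of each are shown so that the windows of Ugt2b34, its neighbors and Cyp3a25 can be compared. Sequences are from RefSeq (GRCm38.p6), on the strand of the gene, and capitals mark AGGTCA, the half-site bound by many nuclear receptors, on either strand (TGACCT on the reverse).
Ugt2b34 (chr5:86906938-86907187, minus strand): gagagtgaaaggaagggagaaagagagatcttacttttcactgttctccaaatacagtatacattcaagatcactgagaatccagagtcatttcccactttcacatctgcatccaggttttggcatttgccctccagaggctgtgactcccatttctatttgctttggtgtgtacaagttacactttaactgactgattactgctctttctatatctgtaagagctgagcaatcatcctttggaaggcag
Ugt2b35 (chr5:87000610-87000859, plus strand): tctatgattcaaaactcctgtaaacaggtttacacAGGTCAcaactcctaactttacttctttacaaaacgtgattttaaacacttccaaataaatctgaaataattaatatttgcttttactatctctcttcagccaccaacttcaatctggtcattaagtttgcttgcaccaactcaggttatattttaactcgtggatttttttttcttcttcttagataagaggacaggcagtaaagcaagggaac
Ugt2b36 (chr5:87092556-87092805, minus strand): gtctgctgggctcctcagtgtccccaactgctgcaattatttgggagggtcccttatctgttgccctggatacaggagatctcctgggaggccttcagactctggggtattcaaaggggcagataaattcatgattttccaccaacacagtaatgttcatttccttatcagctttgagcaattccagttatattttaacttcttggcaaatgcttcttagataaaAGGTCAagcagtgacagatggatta
Ugt2b5 (chr5:87140341-87140590, minus strand): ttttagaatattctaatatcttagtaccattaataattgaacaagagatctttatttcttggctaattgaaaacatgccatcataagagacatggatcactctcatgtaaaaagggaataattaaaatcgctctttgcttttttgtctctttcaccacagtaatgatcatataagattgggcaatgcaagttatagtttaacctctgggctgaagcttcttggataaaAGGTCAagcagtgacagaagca
Sult1b1 (chr5:87538196-87538445, minus strand): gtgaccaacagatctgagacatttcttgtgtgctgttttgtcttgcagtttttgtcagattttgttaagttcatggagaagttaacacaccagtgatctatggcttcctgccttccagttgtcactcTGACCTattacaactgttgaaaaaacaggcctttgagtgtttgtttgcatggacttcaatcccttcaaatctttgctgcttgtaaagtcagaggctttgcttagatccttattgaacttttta
Sult1d1 (chr5:87569007-87569256, minus strand): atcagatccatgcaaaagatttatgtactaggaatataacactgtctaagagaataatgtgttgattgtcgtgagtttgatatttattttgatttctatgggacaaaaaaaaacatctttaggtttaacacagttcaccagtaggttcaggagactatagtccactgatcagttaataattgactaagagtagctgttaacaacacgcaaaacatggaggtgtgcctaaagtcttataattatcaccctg
Cyp3a25 (chr5:146009618-146009867, minus strand): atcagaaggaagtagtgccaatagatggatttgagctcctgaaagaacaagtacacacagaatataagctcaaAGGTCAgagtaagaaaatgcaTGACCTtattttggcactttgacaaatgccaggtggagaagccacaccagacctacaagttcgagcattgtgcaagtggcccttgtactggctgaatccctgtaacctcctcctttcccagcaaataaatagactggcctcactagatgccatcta

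AGGTCA was found once before Ugt2b35, Ugt2b36, Ugt2b5 and Sult1b1, not in the windows of Ugt2b34 and Sult1d1, and at 2 places before Cyp3a25, 177 and 156 bases before its start and on opposite strands. In Ugt2b36 and Ugt2b5 the half-site began 25 and 22 bases before the start, inside the longest stretch the 2 windows shared, 24 bases (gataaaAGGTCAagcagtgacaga). Ugt2b34, the most abundant of the group, shared no stretch longer than 10 bases with any other of the printed windows. RefSeq promoters were matched for 49 of the 58 members, and 11 of the 49 held AGGTCA in this window against 14.0% of 32817 promoters of the same length. GCGTG, the core of the AHR response element, was in 11 of the 49 members (28.1% of all promoters), and GTTAAT, an HNF1 half-site, was in 9 (6.44% of all). TGACNNNGC, the antioxidant response core, was in 3 of the 49 (10.2% of all), TTTATG, a CDX motif, in 4 (10.8%) and TATAAA in 9 (12.4%). The shares of all are per promoter, whereas the member counts are per gene, and a gene can have several promoters. Sult1b1 had another matched promoter, not printed, without AGGTCA. These matches describe letters only and do not show binding.

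Compared per length, as RPKM (reads scaled by gene length and by library size), the member genes ranged from 0.288 (Cyp3a59) to 260.3 in the ileum, with a median of 16.5. Gsto1, an omega-class glutathione transferase with thioltransferase and dehydroascorbate reductase activity, was the highest at a mean of 260.3 ± 13.2 RPKM (SD, n = 16), followed by Ugt2b34, which encodes a glucuronosyltransferase, at 129.8 ± 18.9 and Sult2b1, a hydroxysteroid sulfotransferase, at 109.9 ± 13.2. Cyp3a13 led the cytochromes at 83.5 ± 10.3 RPKM, well above Cyp3a25 (22.9 ± 11.2) and Cyp3a11 (8.69 ± 5.61), which is the main Cyp3a enzyme of mouse liver. Among the Cyp2 genes, Cyp2c55 (69.5 ± 57.1 RPKM), Cyp2s1 (40.3 ± 4.15) and Cyp2c65 (27.2 ± 9.16) ranked first. The next Gst genes were Gstp1 (73.9 ± 6.63) and Gstm1 (35.4 ± 5.88), and the next Sult genes were Sult1b1 (65.0 ± 6.89) and Sult1d1 (56.6 ± 8.99). The other Ugt2 genes were low, Ugt2b35 at 7.76 ± 1.23 RPKM and Ugt2b5 at 5.08 ± 1.54.

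**Figure D1:**
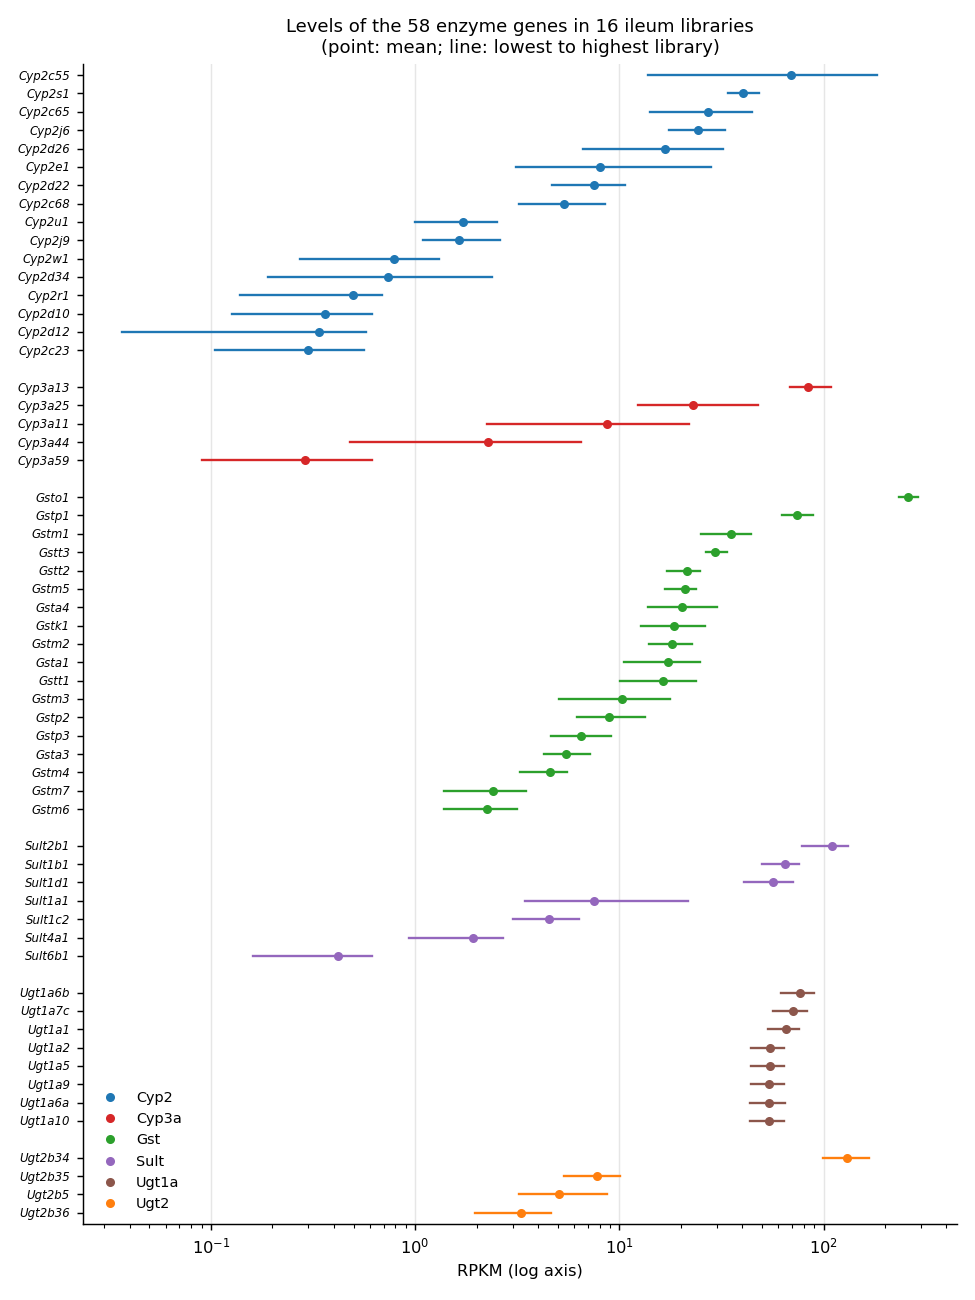
Mean RPKM (points, log axis) and the range from the lowest to the highest of 16 libraries (lines) for the 58 enzyme genes, by family. Gsto1 (260.3) and Ugt2b34 (129.8) were highest, and the lines of Cyp2c55, Cyp2e1, Cyp3a11, Cyp3a44 and Cyp2d34 were among the longest.

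The 8 Ugt1a genes are not 8 independent measurements. They are made from alternative first exons joined to common exons, and in every library nearly the same count was assigned to each, a mean of 3642 counts that made up 82.0% of the Ugt1a1 count. Counts above that shared amount, taken as first-exon reads, left a mean of 1205 for Ugt1a7c, 798 for Ugt1a1, the enzyme that conjugates bilirubin, and 87.4 for Ugt1a6a, and at most 7.94 for each of the other 5 genes. Ugt1a7c and Ugt1a1 were thus the main Ugt1a transcripts in these pieces by this measure, whereas Ugt1a6b, first of the 8 by RPKM at 76.3 ± 8.65, had a mean of 2.19 such reads. With Ugt1a counted once, the members represent 51 loci. Only reads with a single mapping position were kept, and 13 of the other members have a family relative of at least 90% identity over 300 or more transcript bases (for example Cyp3a25 with Cyp3a59 at 97.0%, Cyp2c68 with Cyp2c40 at 98.0%, Ugt2b5 with Ugt2b38 at 95.5% and Gstp1 with Gstp2 at 94.2%), so their counts are uncertain where reads could be split.

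Some members varied far more than most genes between mice of one group. The SD of log2 CPM within groups, with 0.5 added to each CPM, had a median of 0.25 over the members against 0.15 over all 15598 genes tested on 16 libraries, and it reached 1.13 for Cyp2c55, 0.87 for Cyp3a11, 0.85 for Cyp3a44, 0.78 for Cyp2e1, 0.77 for Sult1a1 and 0.73 for Cyp2d34, against 0.07 for Gsto1. The added 0.5 lowers the spread of low genes: without it Cyp2c55 still ranked first (1.13), followed by Cyp2d34 (1.06), Cyp2d12 (1.02) and Cyp3a44 (1.01). Cyp2c55, an arachidonic acid hydroxylase of the colon and intestine, was at 174, 255, 119.7 and 201 CPM in male WT replicates 1 to 4, at 50.2, 361, 70.7 and 89.8 in male LKO, at 325, 55.1, 27.5 and 280.2 in female WT, and at 47.7, 62.3, 53.7 and 27.4 in female LKO. All groups overlapped except male WT and female LKO.

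Sult1a1, which sulfates phenols, was highest in the same 3 libraries as Cyp2c55: male LKO replicate 2 (27.4 CPM), female WT replicate 1 (21.9) and female WT replicate 4 (15.4). The other 13 libraries lay between 4.35 and 9.53 CPM, female LKO above male WT throughout. Across the 16 libraries Pearson's r of log2 CPM between the 2 genes was 0.60, and 0.89 after the group means were removed. Cyp2c55 also varied with Cyp2c65, a neighbor on chromosome 19 (r = 0.81, n = 16 libraries). Cyp2e1, the ethanol-inducible cytochrome, did not share this order, being highest in male WT replicate 4 (48.5 CPM, against 5.40 to 20.8 elsewhere).

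**Figure D2:**
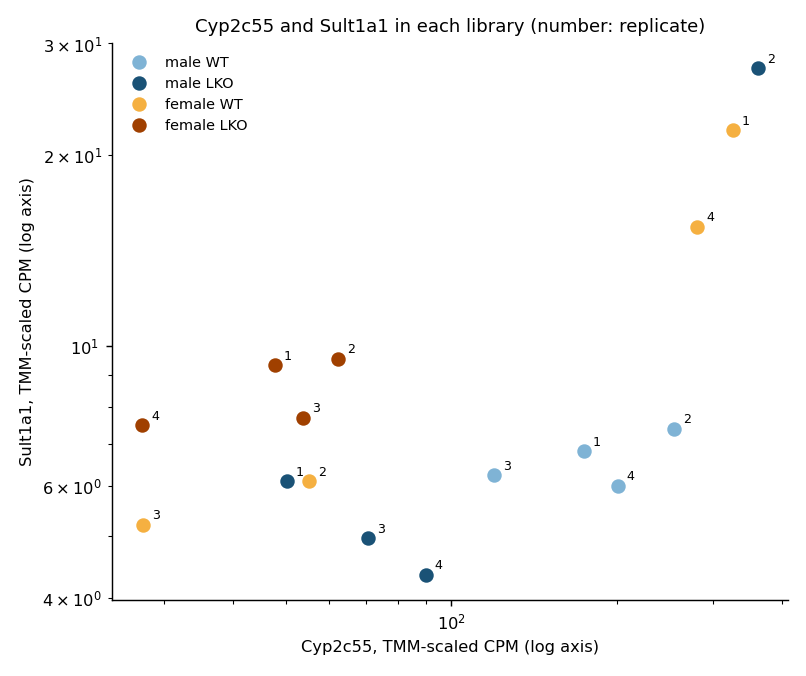
TMM-scaled CPM of Cyp2c55 against Sult1a1 in each of the 16 libraries (log axes, colored by group, numbered by replicate). Male LKO 2 and female WT 1 and 4 stand at the upper right for both genes, with Cyp2c55 at 280.2 to 361 CPM and Sult1a1 at 15.4 to 27.4.

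In males, no member passed the test between LKO and WT ileum: 0 of 57 members tested had an adjusted p below 0.05 by edgeR's quasi-likelihood test with Benjamini-Hochberg adjustment over 15169 genes, of which 0.0527% passed, and DESeq2 also called 0 (against 0.33% of all genes). At an unadjusted p below 0.05, 5 members were lower and 0 higher in LKO, 8.77% of the members against 5.29% of all genes (2.28% lower and 3.01% higher). These 5 were Ugt2b34, Cyp3a44, Gstp2, Cyp3a25 and Gsta3. Ugt2b34 and Cyp3a25 were also the only 2 members whose male groups did not overlap, 3.51% of members against 2.98% of all genes (1.32% lower and 1.66% higher). Log2 fold changes were below 0 for 40 of 57 members (50.8% of all genes), or 32 of 50 outside Ugt1a.

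In females, too, 0 of 57 members passed at an adjusted p below 0.05 by edgeR, against 0.0392% of 15298 genes (0.0196% lower and 0.0196% higher), whereas DESeq2 called 3 of the 49 to which it gave an adjusted p (6.12% against 1.23% of all genes), all lower in LKO: Ugt2b34, Sult1d1 and Ugt2b5. At an unadjusted p below 0.05, 13 members were lower and 1 higher in LKO, and the 14 were 24.6% of the members against 11.7% of all genes (6.75% lower and 4.95% higher). The female groups did not overlap for 6 members (Cyp2c23, Cyp2c68, Sult1c2, Ugt2b34 and Ugt2b36 lower, Gstp3 higher), 10.5% against 6.31% of all genes (3.27% lower and 3.04% higher). Log2 fold changes were below 0 for 39 of 57 members (48.2% of all genes), or 31 of 50 outside Ugt1a. All 4 Ugt2 members were among the lower 13, with Sult1d1, Sult1c2, 4 Cyp2 genes (Cyp2c23, Cyp2c68, Cyp2d34, Cyp2d12), Cyp3a25, Gstm3 and Ugt1a7c. Gstp3, a pi-class glutathione transferase, was the 1 higher, at 4.20 ± 0.68 CPM in WT and 5.73 ± 0.47 in LKO (log2 fold change 0.44 ± 0.15 SE, n = 4 per group, adjusted p = 0.318).

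With both sexes fitted together and sex as a term, 1 of 58 members passed, 1.72% against 0.269% of 15598 genes: Ugt2b34 was lower in LKO by 0.32 ± 0.06 (SE) on the log2 scale, about 19.8% (edgeR adjusted p = 0.0310). DESeq2 called 2 of 47 members, Ugt2b34 and Cyp3a25, 4.26% against 1.77% of all genes. In total, 13 members had an unadjusted p below 0.05, 12 lower and 1 higher, 22.4% against 11.2% of all genes (6.57% lower and 4.67% higher). All LKO libraries lay apart from all WT libraries for 0 members, against 0.0577% of all genes (0.0321% lower and 0.0256% higher). The median log2 fold change of the members was -0.11, and that of all genes was 0.00. Values were below 0 for 46 of 58 members (38 of 50 outside Ugt1a), against 49.8% of all genes. By family, the median was -0.66 for Cyp3a, -0.30 for Ugt2, -0.19 for Cyp2, -0.11 for Ugt1a, -0.01 for Gst and 0.07 for Sult.

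**Figure D3:**
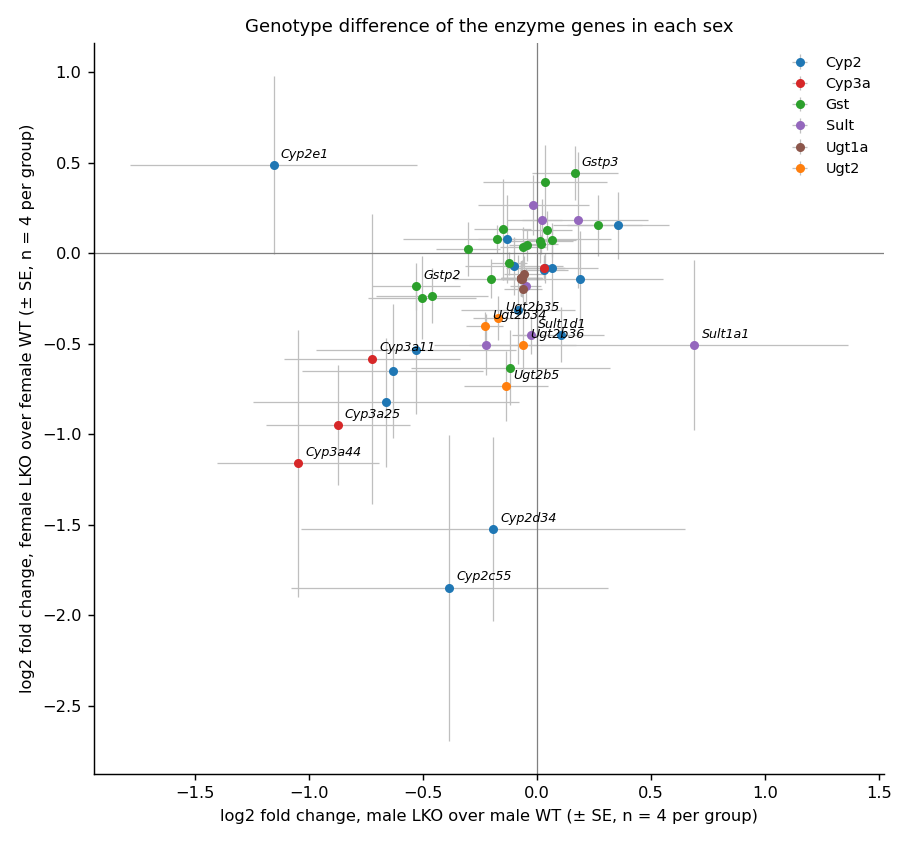
Log2 fold change of LKO over WT in males (horizontal) and females (vertical) with SE, n = 4 per group, for members tested in both sexes, colored by family. The Ugt2 genes lie lower in females than in males, Cyp3a25 (-0.87 and -0.95) and Cyp3a44 (-1.05 and -1.16) lie low in both, and 0 members passed an adjusted p below 0.05 in either sex.

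Ugt2b34 was at 510.0, 451, 415 and 389 CPM in male WT and at 372, 363, 379.9 and 385 in male LKO. In females it was at 439, 375, 464 and 457 CPM in WT and at 329.9, 302, 319.9 and 360.4 in LKO. Every LKO library lay below every WT library of its own sex, the closest in males being WT replicate 4 and LKO replicate 4. The log2 fold change was -0.23 ± 0.08 in males (SE, edgeR adjusted p = 0.704) and -0.40 ± 0.08 in females (adjusted p = 0.128), and the test of the difference between these effects gave an adjusted p of 0.860. Leaving out 1 library at a time moved the adjusted p between 0.00502 and 0.0774, with log2 fold changes of -0.35 to -0.29, and the call was lost without any 1 of male WT 1, male WT 2, male LKO 2, female WT 1, female WT 3, female LKO 1, female LKO 2 or female LKO 3. Without the 4 libraries rich in B cell follicle RNA the value was -0.26 (adjusted p = 0.254). The call was also lost with the number in the sample titles as a covariate (-0.36, adjusted p = 0.114). With its set, a grouping of nearby numbers made here, as a factor, it was lost too (-0.31, adjusted p = 0.411). In males every WT title number was below every LKO one. Among males, only WT replicate 4 and LKO replicate 1 shared a set across genotypes. Genotype and title number were thus poorly separable in males. In females, WT replicates 1 and 2 shared a set with LKO replicate 1, and WT replicate 4 shared one with LKO replicates 2 to 4. Because of the males, these lost calls cannot decide between genotype and title number.

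Its 5 neighbors on chromosome 5 had log2 fold changes below 0 in females, of which 4 had an unadjusted p below 0.05 and 0 passed by edgeR. Sult1d1, which sulfates catecholamines and other small amines, was at 162, 119, 145 and 164 CPM in female WT and at 112, 100.1, 97.5 and 122 in female LKO, so that only female WT replicate 2 fell within the LKO range. Its log2 fold change was -0.45 ± 0.10 in females (adjusted p = 0.205 by edgeR, 0.0132 by DESeq2) and -0.02 ± 0.08 in males, where WT had 126 to 169 CPM and LKO 136 to 151. The difference between the sexes had an unadjusted p of 0.00826 and an adjusted p of 0.845.

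Ugt2b5 was at 14.6, 8.59, 11.2 and 16.3 CPM in female WT and at 9.001, 6.05, 7.30 and 7.81 in female LKO, with a log2 fold change of -0.73 ± 0.19 (adjusted p = 0.246 by edgeR, 0.0280 by DESeq2), against -0.14 ± 0.18 in males. Those female groups overlapped through WT replicate 2 and LKO replicate 1. Ugt2b36 was at 5.89 to 8.72 CPM in female WT and at 4.49 to 5.86 in female LKO, without overlap (-0.51 ± 0.15, adjusted p = 0.285). Ugt2b35, at 25.6 to 31.9 CPM in female WT and 18.0 to 25.8 in female LKO, had a log2 fold change of -0.36 ± 0.12 (adjusted p = 0.318). Sult1b1, which sulfates thyroid hormones and phenols, had -0.18 ± 0.10 in females and -0.05 ± 0.07 in males. Female LKO replicates 2 and 3, rich in B cell follicle RNA, were the lowest female libraries for Ugt2b34, Sult1d1, Ugt2b35 and Ugt2b5. For Ugt2b36 and Sult1b1, female LKO replicate 3 was the lowest female library (4.49 and 129.8 CPM). Female LKO replicate 2 was not next to it in order for either gene. Over all alternative fits, including that without the B cell-rich libraries, the female value of Sult1d1 ran from -0.54 to -0.35. That of Ugt2b5 ran from -0.88 to -0.59.

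All 6 members in the stretch had log2 fold changes below 0 in each sex. Of its other family genes, which were below the count limit, only Ugt2a3 was tested, at 0.90 in males and 0.39 over both sexes. Over the 16 libraries, after removal of group means, Ugt2b34 correlated with Sult1d1 at r = 0.85, with Sult1b1 at 0.74, with Ugt2b35 at 0.69, with Ugt2b36 at 0.57 and with Ugt2b5 at 0.48. Among the other 10 pairs of the 6 genes the within-group r ran from 0.099 (Ugt2b35 with Ugt2b36) to 0.78 (Sult1b1 with Sult1d1), with 0.21 for Ugt2b35 with Ugt2b5 and 0.37 for Ugt2b36 with Sult1b1, so the genes did not all vary together. These points share libraries and cell makeup, and the values are a description. Outside the stretch, the first-exon reads of Ugt1a7c were at 61.6 ± 5.14 CPM in female WT and 47.5 ± 4.63 in female LKO (-0.37 ± 0.08, adjusted p = 0.187), and at 63.6 ± 6.82 and 61.6 ± 2.24 in male WT and LKO, whereas those of Ugt1a1 were at 35.1 in both female groups (0.01 ± 0.13).

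**Figure D4:**
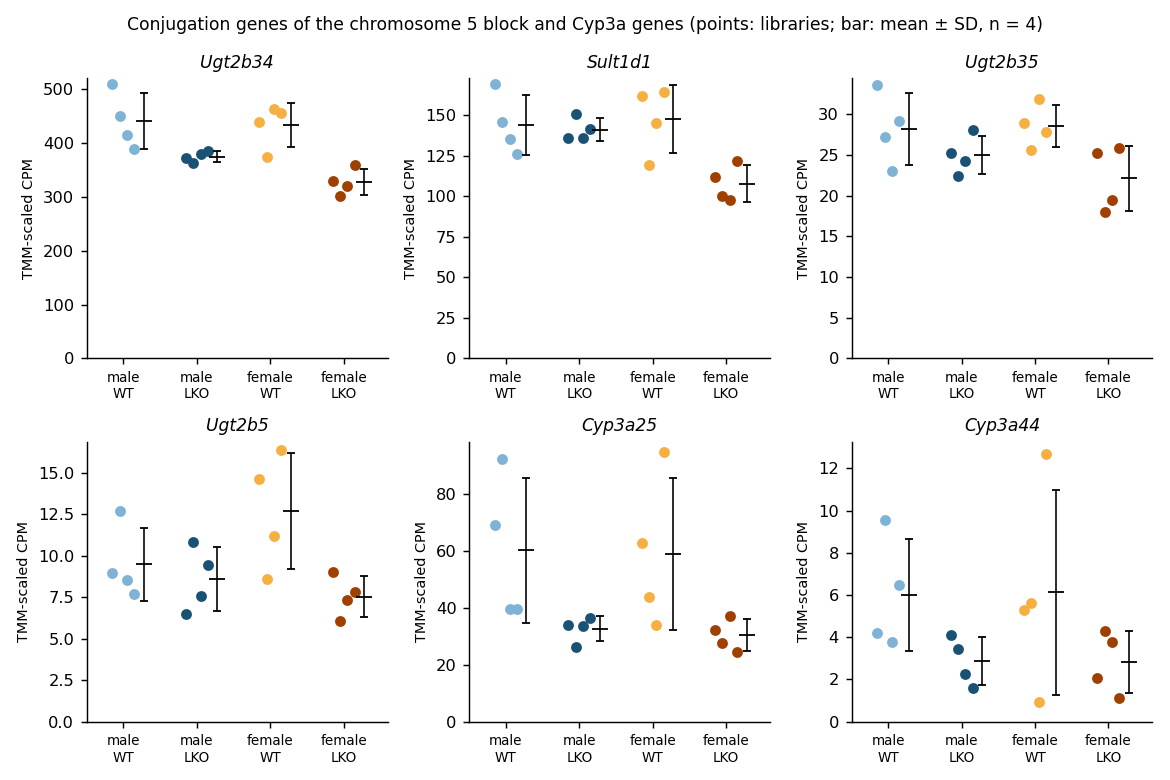
TMM-scaled CPM by group for 3 Ugt2b genes, Sult1d1 and 2 Cyp3a genes (points are libraries, bars the mean ± SD, n = 4). The LKO points of Ugt2b34 lie below the WT points of the same sex, while Sult1d1 separates in females except for WT replicate 2, and overlaps in males.

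Cyp3a genes, which oxidize many drugs and steroids and hydroxylate bile acids, had 5 members. Cyp3a44, Cyp3a11, Cyp3a25 and Cyp3a59 lie in a cluster (chromosome 5, 145773983 to 146113283), and Cyp3a13 lies apart (137892933 to 137921619). Cyp3a25 was at 69.0, 92.3, 39.5 and 39.7 CPM in male WT and 33.9, 26.4, 33.5 and 36.6 in male LKO, and at 62.8, 43.7, 34.1 and 94.8 in female WT and 32.2, 27.5, 37.3 and 24.6 in female LKO. WT libraries spread from 34.1 to 94.8 CPM, whereas all 8 LKO libraries stayed between 24.6 and 37.3, and only female WT replicate 3 lay inside the LKO range. Over both sexes the log2 fold change was -0.92 ± 0.23 (adjusted p = 0.121 by edgeR, 0.00967 by DESeq2), with -0.87 ± 0.32 in males and -0.95 ± 0.33 in females.

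Cyp3a44 was at 3.77 to 9.57 CPM in male WT and 1.60 to 4.12 in male LKO, and at 0.933 to 12.7 in female WT and 1.12 to 4.28 in female LKO. The female LKO libraries lay inside the female WT range, and the lowest library of all was a female WT. Over both sexes its log2 fold change was -1.11 ± 0.42 (adjusted p = 0.320). Cyp3a11 was at 13.8 to 36.0 CPM in male WT, 9.33 to 20.6 in male LKO, 4.61 to 44.8 in female WT and 6.24 to 18.7 in female LKO, and all 4 groups overlapped (-0.66 ± 0.43, adjusted p = 0.620). Cyp3a59, near the count limit, was at means of 0.818 CPM in male WT, 0.514 in male LKO, 0.461 in female WT and 0.489 in female LKO (-0.28 ± 0.30 over both sexes, adjusted p = 0.782). Within groups Cyp3a25 had an r of 0.83 with Cyp3a11, 0.66 with Cyp3a59 and 0.62 with Cyp3a44 (n = 16 libraries), whereas Cyp3a59 and Cyp3a44 had 0.23. Cyp3a13 had a log2 fold change of -0.03 ± 0.06 between genotypes over both sexes, and its r with Cyp3a25 within groups was 0.20.

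The remaining members with an unadjusted p below 0.05 over both sexes were Gstp2, Gstm6, Gstm7, Sult1c2, Cyp2d26 and Cyp2d12, all lower in LKO, and Gstp3, higher. Their log2 fold changes ran from -0.75 (Cyp2d12) to 0.30 (Gstp3), and their adjusted p-values from 0.247 (Gstp2) to 0.432. Cyp2c23, an epoxygenase, was at 0.658 to 1.10 CPM in female WT and 0.372 to 0.550 in female LKO, and at 0.205 to 0.510 and 0.359 to 0.760 in male WT and LKO, where it was too low to be tested. It had the smallest unadjusted p of the members for a difference between the sexes in the genotype effect (0.00307, adjusted p = 0.845). In that comparison 0 of 58 members and 0% of 15598 genes passed, 4 members had an unadjusted p below 0.05 (Cyp2c23, Sult1d1, Gstp1, Cyp2c68), 6.90% against 5.64% of all genes (2.58% with a higher and 3.05% with a lower value in males), and DESeq2 also called 0 members.

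Paneth cell markers, the antimicrobial genes of the crypt base, moved with genotype in males: their summed CPM was 14548 to 16792 in male WT and 19742 to 25479 in male LKO. There values were above 0 for 10 of 10, and 3 (Lyz1, Mmp7, Itln1) passed, against 0.0527% of all genes. In females Paneth values were above 0 for 8 of 10, and 0 had an unadjusted p below 0.05, against 11.7% of all genes. Over both sexes Paneth values were above 0 for 10 of 10 (7 with an unadjusted p below 0.05, 0 passed), and enteroendocrine values were below 0 for 10 of 10 (5 with an unadjusted p below 0.05, and Chgb passed). Of all genes 11.2% had an unadjusted p below 0.05 in that comparison, and 0.269% passed. In females the enteroendocrine sum was 359 to 406 in WT and 304 to 344 in LKO, and the hepatocyte list sum, carried by Cps1 and Tat, was 585 to 711 in WT and 482 to 576 in LKO, both without overlap. Enterocyte marker sums were 21077 to 24215 in male WT, 19853 to 22753 in male LKO, 17786 to 22352 in female WT and 17827 to 21108 in female LKO. The part of Paneth and enteroendocrine cells in the Ugt2b34 result was not tested. With the enterocyte sum as a covariate its log2 fold change was -0.30 (adjusted p = 0.0596).

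Between males and females, 5 of 58 members passed over both genotypes, 8.62% against 11% of 15598 genes (5.61% higher and 5.44% lower in males), a share below that of all genes. In males Cyp2j6 was higher by 0.42 ± 0.06 on the log2 scale (SE, n = 8 per sex, edgeR adjusted p = 0.00169), and Cyp3a13 by 0.26 ± 0.06 (adjusted p = 0.00963). Gstt1 (-0.42 ± 0.10, adjusted p = 0.0135), Gstm1 (-0.34 ± 0.08, adjusted p = 0.0148) and Gstm2 (-0.28 ± 0.07, adjusted p = 0.0240) were lower. The members without overlap were Cyp2j6 and Cyp3a13, 3.45% against 0.923% of all genes (0.583% higher and 0.34% lower). At an unadjusted p below 0.05 there were 18 members, 31.0% against 29.3% of all genes, and DESeq2 called 7 of 58, 12.1% against 15.4%. With the replicate block the Gstm2 call was lost (adjusted p = 0.0533) and Cyp2c65 was called instead (0.61, adjusted p = 0.0282).

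Cyp2j6, an epoxygenase abundant in the small intestine, was at 101, 90.1, 104 and 98.0 CPM in male WT and 88.6, 90.8, 118 and 105 in male LKO, and at 75.0, 71.4, 87.1 and 71.6 in female WT and 74.2, 74.3, 62.9 and 76.6 in female LKO. Every male library was above every female one, the closest being male LKO replicate 1 and female WT replicate 3. Cyp3a13 was at 243 to 320.1 CPM over the 8 male and at 202 to 242 over the 8 female libraries. Across the 16 libraries Cyp3a13 tracked Cyp2j6 (r = 0.85, and 0.54 after removal of group means).

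The 3 glutathione transferase genes ran the other way. Gstt1, a theta-class enzyme that acts on halogenated solvents, was at 10.3 to 18.4 CPM in males and 17.0 to 24.4 in females, overlapping through male LKO replicate 2. Gstm1, a mu-class enzyme, was at 32.4 to 47.2 and 40.4 to 56.8 CPM, and its neighbor on chromosome 3, Gstm2, at 14.3 to 19.8 and 16.1 to 23.1. Gstm1 and Gstm2 correlated at r = 0.87 across libraries (0.79 within groups).

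**Figure D5:**
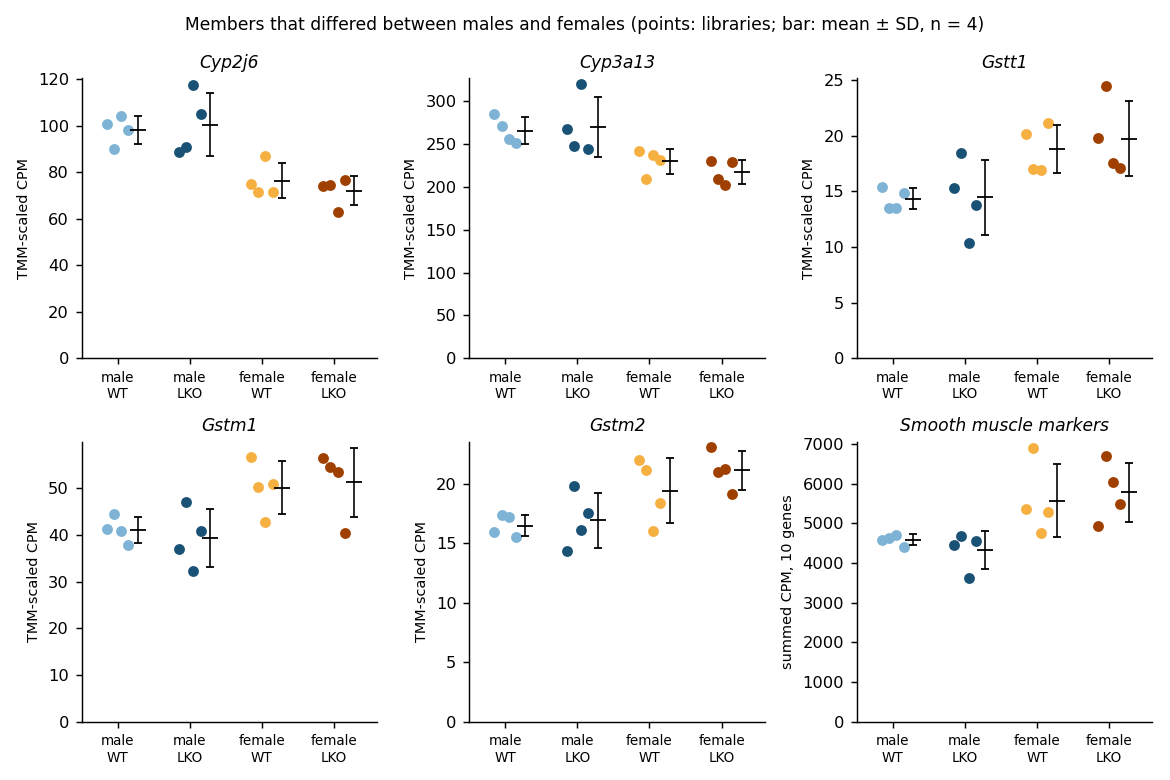
TMM-scaled CPM by group for the 5 members that differed between males and females, and the summed CPM of 10 smooth muscle markers (points are libraries, bars the mean ± SD, n = 4). Cyp2j6 and Cyp3a13 are higher in males, and Gstt1, Gstm1, Gstm2 and the smooth muscle sum are higher in females.

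Smooth muscle markers moved with sex. Their summed CPM was 3608 to 4706 in the 8 male and 4756 to 6887 in the 8 female libraries, without overlap. Of these markers 9 of 10 passed, all lower in males, against 11% of all genes. The correlation with that sum was -0.89 for Cyp3a13, -0.84 for Cyp2j6, 0.75 for Gstm1, 0.73 for Gstt1 and 0.70 for Gstm2 over the 16 libraries, and -0.49, -0.36, 0.29, 0.27 and 0.25 within groups. With the sum as a covariate, a fit chosen after the data were seen, 0 members and 10 of all genes passed, the log2 difference of Cyp3a13 became 0.07 and that of Cyp2j6 0.26 (adjusted p = 0.837 and 0.458). Paneth cell markers were also lower in males (6 of 10 passed), and enterocyte markers were higher in males (3 of 9 tested passed), where 11% of all genes passed. Sex and the amount of muscle in the piece therefore cannot be told apart here for these 5 genes.

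Within WT mice alone 0 of 58 members passed between the sexes (0.25% of 15229 genes), 9 had an unadjusted p below 0.05 (15.5% against 13.9% of all genes), and DESeq2 called 1 of 51 (against 1.7% of all genes), Cyp2j6 (0.36 ± 0.08, edgeR adjusted p = 0.0692). Within LKO mice 0 of 56 passed (0.0984% of 15250 genes), 14 had an unadjusted p below 0.05 (25.0% against 22.6% of all genes), and DESeq2 called 4 of 53 (7.55% against 6.91% of all genes), all higher in males: Cyp2j6, Sult1d1, Cyp3a13 and Cyp2c65. Sult1d1 was at 136 to 151 CPM in male LKO and 97.5 to 122 in female LKO, without overlap (0.38 ± 0.08, edgeR adjusted p = 0.0617), whereas the WT groups overlapped. Ugt2b34 was also higher in male than in female LKO (363 to 385 against 302 to 360.4 CPM), with a log2 value of 0.19 ± 0.06 and an adjusted p of 0.124.

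Genes around the enzymes were read from lists of regulators, cofactor suppliers and related enzymes. Of 15 xenobiotic sensors and their partners, 0 passed by edgeR between genotypes in either sex or over both. In females 8 of the 15 had an unadjusted p below 0.05, against 11.7% of all genes, 11 had values below 0 and the median was -0.17. There DESeq2 called Ahrr, the AHR repressor (-0.68 ± 0.17, DESeq2 adjusted p = 0.0288, edgeR 0.206). In males 0 had an unadjusted p below 0.05, against 5.29% of all genes, and the median was -0.01. Nr1i2 (PXR), the receptor of drugs and secondary bile acids, had a log2 value of 0.11 ± 0.05 over both sexes (adjusted p = 0.431), Nr1i3 (the constitutive androstane receptor, CAR) -0.04 ± 0.15, Ahr -0.13 ± 0.06 and Nfe2l2 (NRF2) -0.11 ± 0.05. Between sexes 2 of the 15 passed, a share near the 11% of all genes. Both were higher in males: Nfe2l2 (0.24 ± 0.05, adjusted p = 0.0104) and Hnf4a, a master regulator of enterocyte and liver genes (0.16 ± 0.04, adjusted p = 0.0126).

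Of 14 cofactor genes, 0 passed by edgeR between genotypes, and DESeq2 called Ugdh, which makes UDP-glucuronic acid for the Ugt enzymes, lower in female LKO (-0.33 ± 0.08, DESeq2 adjusted p = 0.0402, edgeR 0.223). In the same list 2 of 14 passed between sexes, a share near the 11% of all genes. Both were higher in males: Alas1, the first enzyme of heme synthesis (0.57 ± 0.09, adjusted p = 0.00256), and Bpnt1, which clears the phosphoadenosine phosphate left by sulfation (0.25 ± 0.05, adjusted p = 0.00481). Among other functionalization enzymes, 1 of 18 tested passed over both sexes between genotypes, against 0.269% of all genes: Cyp1b1, an AHR target, lower in LKO (-0.62 ± 0.12, adjusted p = 0.0310). The Cyp1b1 call was lost with the replicate block (adjusted p = 0.0743), the title number (0.284), its set (0.170) and without the B cell-rich libraries (0.0530), at log2 values of -0.74 to -0.55. DESeq2 also called Fmo1 and Cyp1b1 in males, Fmo4 and Maoa in females, and Maoa over both sexes, all lower in LKO. Between sexes 2 of 18 passed, also near the 11% of all genes: Ephx1, the microsomal epoxide hydrolase, and Maob, both lower in males. Of 11 other conjugation enzymes tested, 0 passed between genotypes, and Hpgds and Hnmt (lower) and Nat2 (higher in males) passed between sexes, where 11% of all genes passed. The 12 drug transporters had 0 passing in any comparison, and of 10 NRF2 targets outside the families only Txnrd1, a thioredoxin reductase, passed, between sexes (0.24 ± 0.05, adjusted p = 0.00749).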

How the data were processed

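Polyadenylated RNA of 16 terminal ileum pieces was sequenced single-end from TruSeq stranded libraries. The authors aligned reads with STAR 2.5.2 (at most 4 mismatches, a single map position, mm10) and deposited raw gene counts made with HOMER 4.10. The annotation version and strand option are not given in the sources used here, and the authors' own tests used DESeq2. Groups and replicate numbers came from the sample titles, and p-values measure the spread between these samples, which may be partly technical.

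In R 4.3.3, genes were filtered with filterByExpr, scaled by TMM and tested with edgeR 4.0.16 (limma 3.58.1; robust quasi-likelihood test, Benjamini-Hochberg adjustment over all genes tested, threshold 0.05), within each sex, over both sexes with sex as a term, and for the interaction. DESeq2 1.42.0 was an alternative. RPKM used TMM-scaled CPM and the length column deposited with the counts. SE accompanies log2 fold changes and SD accompanies levels. Ugt1a first-exon reads are counts above the lowest of the 8 Ugt1a genes in a library. Transcript identity was measured by blastn. The fits were tested on simulated data, with changes larger than most of those reported here and not in the lowest genes. That test therefore does not cover small differences or low genes. Named genes are members with an adjusted p below 0.05, up to 6 in each direction with the smallest unadjusted p below 0.05 per comparison, the 3 highest by RPKM per family, the genes nearest the count limit, listed pathway genes with an adjusted p below 0.05, and Nr1i2, Nr1i3, Ahr and Nfe2l2. Cyp2e1, Sult1a1 and Ugt1a6a, and members named to spell out a count or a position, were chosen after their values were seen. The members and gene lists were chosen with earlier results of these data known. Other alternatives were scaling, filters, the replicate block, title numbers and leaving out libraries. Fits with marker sums, with Ugt1a first-exon reads, without the log-scale offset or without the B cell-rich libraries were added after seeing the data.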

Additional observations from a re-analysis of the deposited data

Results flagged for a closer look

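In 7 of 144 groups of 4 libraries, 1 library stood far from the other 3 by Dixon's ratio at its 95% critical value, and chance gives this in about 1 in 20 groups. In male LKO these were Cyp2c55 in replicate 2 (361.092 CPM), Sult1a1 in replicate 2 (27.4406), Cyp2u1 in replicate 2 (2.33156) and Cyp2s1 in replicate 3 (94.016). In male WT they were Sult2b1 in replicate 4 (112.79 CPM) and Cyp2w1 in replicate 4 (0.410704), and in female WT it was Gstp1 in replicate 1 (46.8475).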

How the results depend on the processing

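Of 1327 values of named members under alternative settings, 1258 kept their direction and side of the threshold, 34 became stronger, 34 became weaker and 1 reversed: the sex difference of Sult1b1 was -0.0303 on the log2 scale with the smooth muscle sum as a covariate. Most of these results did not pass in the main fit and so had no call to lose. Among those that did, Ugt2b34 over both sexes passed in 19 of 31 alternatives. Between sexes Cyp2j6 passed in 29 of 31, Cyp3a13, Gstm1 and Gstt1 in 27 each, and Gstm2 in 23. With DESeq2 the members called were 3 in females, 2 over both sexes, 1 between WT sexes and 4 between LKO sexes, and the listed genes outside the families were 2 in males, 4 in females, 2 over both sexes, 1 between WT sexes and 8 between LKO sexes. Over both sexes, 0 members were called with the enterocyte sum, the title number or the title number set as a term, or without the 4 libraries rich in B cell follicle RNA, and 0 listed genes with the replicate block, either title number term or without those libraries. Between sexes over both genotypes, members called were 1 with the enterocyte sum, 0 with the smooth muscle sum, 2 with the title number and 0 with its set, and listed genes were 2, 0, 3 and 0. Between WT sexes, 1 member was called with no filter on low counts and 1 without the B cell-rich libraries. Between LKO sexes, 2 members were called with no filter, and 0 listed genes with at least 10 counts in every library, a non-robust fit, the title number or without the B cell-rich libraries. The cause of these changes was not tested. Title numbers followed genotype in males, and some sets held only females or only male LKO libraries. Calls lost with either title number term therefore cannot be assigned to the number rather than to genotype or sex.

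Leaving out 1 library at a time gave 0 to 1 members over both sexes, 0 to 1 between WT sexes, 0 to 3 between LKO sexes and 4 to 7 between sexes, and 0 to 1 listed genes in males, 0 to 4 over both sexes, 0 to 1 between WT sexes, 0 to 5 between LKO sexes and 7 to 12 between sexes. Same-numbered libraries correlated at -0.10 to 0.26, highest between female WT and female LKO for replicates 3 (0.26) and 1 (0.18). The titles do not say whether the numbers pair the samples, and these values cannot settle it. With the replicate block, 1 member was called in males (Cyp2d26) and 1 between WT sexes (Cyp2e1), and Ugt2b34 over both sexes was -0.31 (adjusted p = 0.0418).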
